A study of Mus musculus with 6 samples.

Results

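The subject is the step between both doses of SHP099: mouse glioma cells at 10 µM of the inhibitor set against the same cells at 5 µM. SHP099 locks SHP-2, a phosphatase encoded by Ptpn11, in its closed and inactive form. The 10 µM library and the 5 µM library were each sequenced in lanes 6 and 7, so 4 of the 6 lane files of the series enter the comparison, and the 0 µM library is given beside them for its levels. In the labels the cells of every dose come from astrocytes, lack Ink4a/Arf, carry PDGFRa and PDGF-A and are called tumor; the length of treatment, the number of clones and the form of the introduced genes are not given there. Genes were compared where their mean over the lanes was at least 5 FPKM (fragments scaled to the length of the transcript and to all mapped fragments of a file) at either dose, which held for 9448 of 53345 gene symbols. Of these, 5984 (63.3%) differed in the same direction in all 4 pairings of a 10 µM lane with a 5 µM lane, 2582 (27.3%) higher and 3402 (36%) lower at 10 µM.

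Growth factor receptors such as the PDGF receptor recruit SHP-2, which helps to load RAS with GTP and so to activate the ERK kinases. ERK raises cyclin D1, the cyclin that brings cells out of G1, and cyclin-dependent kinases then release the E2F factors for S phase and, through the DREAM and MuvB complexes, the genes of G2 and mitosis. Many promoters of the mitotic genes hold a cell-cycle homology region (CHR, TTTGAA) downstream of CCAAT boxes, the sites of NF-Y.

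A gene was called higher or lower at 10 µM when its mean difference on the log2(FPKM + 1) scale was at least 1.5-fold and all 4 lane pairs had that sign. By this rule 15 genes (0.159% of those compared) were higher and 97 (1.03%) were lower, 112 (1.19%) together. Each dose is 1 library and its lanes are repeat runs, so lane differences show sequencing error and no p-value between the doses can be given. The genes called lower were led by the machinery of cell division: 28 were members of a list of G2 and M phase genes and 10 of a list of S phase and replication genes. Cyclin D1 (Ccnd1), the calcium-binding protein gene S100a4 and the antiviral membrane protein gene Ifitm3 were the most abundant of the rest by FPKM at 5 µM. Among the 15 called higher, 5 were protein coding, and the cholesterol exporter Abca1 and the phosphatase gene Ptpn4 were the protein-coding genes with all 4 lane pairs past 1.5-fold.

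Promoter sequences are shown for some called-lower members of the G2 and M phase list, picked by holding both a CHR and a CCAAT box. The CCAAT motif was added after the values were seen. Windows were taken from RefSeq promoters on GRCm38.p6, and 25 of the 28 genes matched, with 27 windows. In the last 120 bases before the annotated start, 9 of the 27 windows hold a CHR, 20 a CCAAT box and 6 both. Those below are the 6 with both, and the share with both among all genes compared was not counted. Capitals mark TTTGAA or its reverse complement TTCAAA, and CCAAT or its reverse complement ATTGG. They read 5′ to 3′ on the strand of the gene.
Cdc20 (chr4:118437344-118437463, minus strand): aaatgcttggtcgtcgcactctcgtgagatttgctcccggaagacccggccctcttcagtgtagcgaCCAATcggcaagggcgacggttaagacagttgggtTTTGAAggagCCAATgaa
Ube2c (chr2:164769809-164769928, plus strand): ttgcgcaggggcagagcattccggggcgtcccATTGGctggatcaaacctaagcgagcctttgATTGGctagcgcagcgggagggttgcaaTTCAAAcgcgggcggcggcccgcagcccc
Top2a (chr11:99024190-99024309, minus strand): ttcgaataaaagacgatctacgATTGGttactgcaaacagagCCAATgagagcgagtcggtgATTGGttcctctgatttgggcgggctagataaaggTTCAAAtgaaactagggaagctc
Prc1 (chr7:80294356-80294475, plus strand): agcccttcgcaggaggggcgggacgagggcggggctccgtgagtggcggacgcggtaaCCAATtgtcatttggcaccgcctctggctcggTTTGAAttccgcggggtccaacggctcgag
Cdk1 (chr10:69352913-69353032, minus strand): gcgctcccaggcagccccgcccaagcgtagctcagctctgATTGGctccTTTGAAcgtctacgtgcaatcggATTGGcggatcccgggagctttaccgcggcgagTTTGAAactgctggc
Ect2 (chr3:27153879-27153998, minus strand): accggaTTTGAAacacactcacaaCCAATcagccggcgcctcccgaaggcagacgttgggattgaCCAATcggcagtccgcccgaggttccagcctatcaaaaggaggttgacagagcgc

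Cdc20 activates the anaphase-promoting complex, Ube2c is its ubiquitin-conjugating enzyme, Top2a untangles DNA, Prc1 bundles the midzone microtubules, Cdk1 is the mitotic kinase and Ect2 starts cytokinesis. In the windows of Cdc20, Ube2c, Top2a, Prc1 and Cdk1 a CHR follows a CCAAT box toward the start, and in that of Ect2 the CHR comes before its CCAAT boxes. Over the 250 bases before the start, read on both strands, TTTGAA was found in 44.4% of the 27 windows of the G2 and M phase genes called lower, and in 10.1% of 9476 windows of the genes compared (7385 of 9448 genes matched). CCAAT was found in 81.5% of the same 27 windows, and in 35.5% of the windows of genes compared. The E2F motif TTTCCCGC was in none of those 27 windows, against 1.79% of the windows of genes compared, and TTTGGCGC was in 1 window (3.70%) against 0.791%. The ETS motif CCGGAAGT was in 3 of the 27 windows (11.1%), against 6.60% of the windows of genes compared, and the TEAD motif GGAATG in 3 (11.1%) against 10.2%. The antioxidant response motif TGACNNNGC was in 4 (14.8%) against 11.7%, the ATF4 motif TGATGNAAN in 1 (3.70%) against 1.77%, and the interferon response motif (ISRE) in 1 (3.70%) against 2.43%. The AP-1 motif TGANTCA, the E-box CACGTG, the CRE TGACGTCA and both forms of the SRF motif (CArG box) were in none of the 27, against 3.98%, 8.84%, 2.68%, 0.0317% and 0.0633% of the windows of genes compared, in that order. Each motif was read on both strands and counted on its own. Shares among G2 and M phase members that were not called were not counted. These matches describe letters in a window and are no measure of binding; the CCAAT motif was added after the values were seen.

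The spread between lanes sets the scale of the comparison. Over the genes compared, the median absolute difference was 0.09 between 10 and 5 µM on the log2 scale, against 0.05 between the lanes at 10 µM and 0.05 between those at 5 µM. Lanes of the same library differed by 1.5-fold or more for 45 genes at 10 µM and for 26 at 5 µM, and the means of both doses did so for 119 genes, of which 7 had lane pairs of mixed sign and were not called. For the same genes, the 5 µM library against the 0 µM library had a median absolute difference of 0.36, and 2862 genes differed by 1.5-fold or more. The step from 5 to 10 µM was thus small beside that from 0 to 5 µM in these libraries. The median fold of all genes compared was -0.01.

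**Figure D1:**
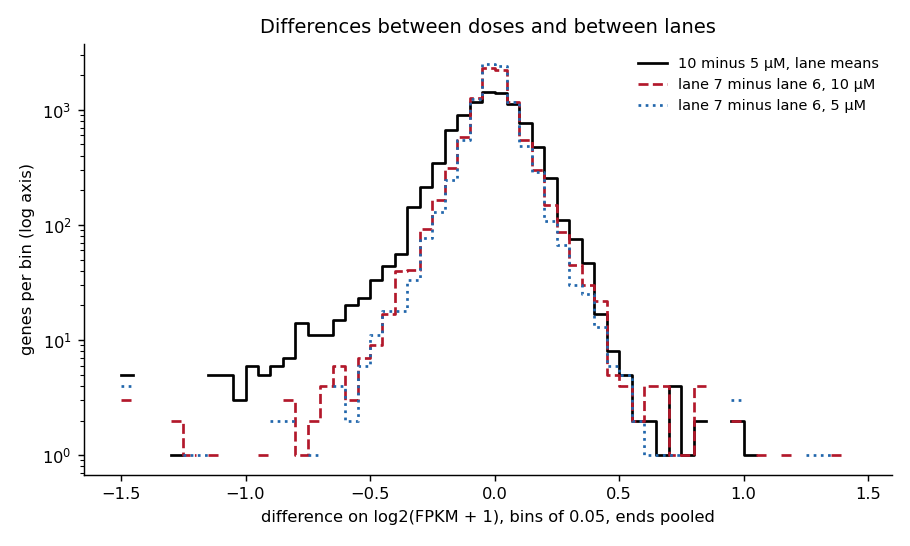
Number of genes (log axis) by difference on the log2(FPKM + 1) scale for 10 minus 5 µM (means of the lanes) and for lane 7 minus lane 6 of each of those libraries, over the 9448 genes compared, in bins of 0.05 with the ends pooled. On the negative side past 1.5-fold, the distribution of 10 minus 5 µM holds more genes, 97 of them called lower, than either distribution between lanes. Lanes differed that far in either direction for 45 genes at 10 µM and 26 at 5 µM.

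**Figure D2:**
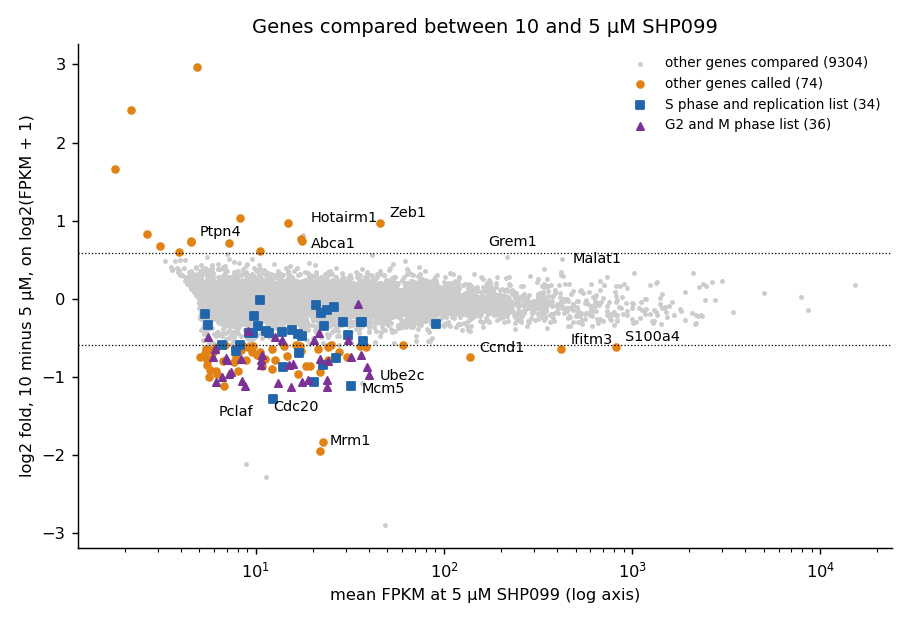
Log2 fold of 10 over 5 µM (vertical) against mean FPKM at 5 µM (log axis) for the 9448 genes compared, with members of the S phase list as squares, members of the G2 and M phase list as triangles and other called genes in orange; dotted lines mark 1.5-fold. Members of both cell-cycle lists lie at or below 0, and genes called higher lie mostly at low FPKM.

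Mitosis genes formed the largest group called lower among the lists. Of the 43 genes listed for G2 and M phase, 36 were compared and 28 were called lower, and in 36 of 36 every lane pair was lower at 10 µM. Their median log2 fold was -0.79, ranging over the lane pairs between -0.82 and -0.78, beside -0.01 for all genes compared. Of all genes compared, 1.03% were called lower and 36% were lower in every lane pair. The filter on FPKM was met at both doses by 24 of the 36 members and at 5 µM alone by 12. The count among genes that passed is thus not independent of the direction. With a filter of 1 FPKM all 43 members were compared and 32 were called lower; over all 12340 genes compared at that filter, 1.38% were called lower and 0.413% higher. Summed over the 36 members, the level was 2802 FPKM at 0 µM, 595.7 FPKM at 5 µM and 340.5 FPKM at 10 µM. In bulk RNA, fewer cells in these phases and less of these RNAs per cell cannot be told apart.

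The regulators of entry into and exit from mitosis were among the lowest. Cdc20 had 10.2 and 10.7 FPKM in the 10 µM lanes, against 23.2 and 24.7 FPKM in the 5 µM lanes, a log2 fold of -1.13 (lane pairs -1.20 to -1.06). Plk1, the polo-like kinase of spindle assembly, had 6.64 and 6.34 FPKM at 10 µM, against 15.5 and 15.2 FPKM at 5 µM, with a log2 fold of -1.13. Aurkb, the kinase of the chromosomal passenger complex, had 3.44 and 3.54 FPKM at 10 µM, against 8.81 and 8.62 FPKM at 5 µM (-1.12). In these genes the lanes of a dose lay close together, and that the doses did not overlap is part of the rule for a call. The cyclin gene Ccnb1, partner of Cdk1, had 8.20 and 9.23 FPKM at 10 µM, against 18.2 and 19.6 FPKM at 5 µM (-1.04). Cdk1 itself had 18.1 and 18.9 FPKM at 10 µM, against 36.8 and 27.2 FPKM at 5 µM, a log2 fold of -0.74 whose lane pairs ran from -0.98 to -0.50, the 5 µM lanes lying apart.

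Mki67, which coats mitotic chromosomes and is used to stain cycling cells, had 5.55 and 5.78 FPKM at 10 µM, against 13 and 13.1 FPKM at 5 µM. Its log2 fold was -1.07 (-1.10 to -1.05), and its mean at 0 µM was 94.6 FPKM. Kinetochore and centromere genes ran the same way: Cenpa, the centromeric histone, had 8.55 and 7.23 FPKM at 10 µM, against 18.8 and 16.3 FPKM at 5 µM (-1.06). Spc24, an Ndc80 complex subunit outside the list, had 3.77 and 1.70 FPKM at 10 µM, against 6.81 and 6.71 FPKM at 5 µM (-1.11, lane pairs -1.53 to -0.69). The 10 µM lanes of Spc24 stood further apart than those of any gene above, with both under the 5 µM lanes, as the rule for a call requires. Birc5, the passenger complex protein survivin, had 10.8 and 11.2 FPKM at 10 µM, against 24.2 and 23.2 FPKM at 5 µM (-1.04).

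Motor and spindle genes called lower included Kif4, Kif2c, Kif23, Kif20a and Nusap1. Kif4, a chromokinesin, had 2.16 and 2.70 FPKM at 10 µM, against 6.21 and 6.06 FPKM at 5 µM (-1.06). Nusap1, a spindle microtubule binder, had 3.51 and 3.65 FPKM at 10 µM, against 8.74 and 8.16 FPKM at 5 µM (-1.04). Kif2c, a microtubule depolymerase, had 2.71 and 2.90 FPKM at 10 µM, against 6.53 and 6.67 FPKM at 5 µM (-0.999). All 3 passed the filter through their 5 µM level. The more abundant Ube2c had 19.2 and 20.6 FPKM at 10 µM, against 40.6 and 39.3 FPKM at 5 µM (-0.97), and Top2a had 21.2 and 20.1 FPKM at 10 µM, against 40.3 and 37.1 FPKM at 5 µM (-0.87).

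The compared G2 and M phase members that were not called had folds from -0.53 to -0.07. Foxm1, the transcription factor of the mitotic programme, had 9.36 and 9.25 FPKM at 10 µM, against 14.1 and 13.6 FPKM at 5 µM (-0.52). Smc4, a condensin subunit, had 33.0 and 33.4 FPKM at 10 µM, against 36.0 and 33.7 FPKM at 5 µM (-0.07). Members not compared, Cdc25c, Cenpe, Cenpf, Kif11, Mybl2, Ska1 and Ttk, were under 5 FPKM at both doses and had folds between -0.72 and -0.29.

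**Figure D3:**
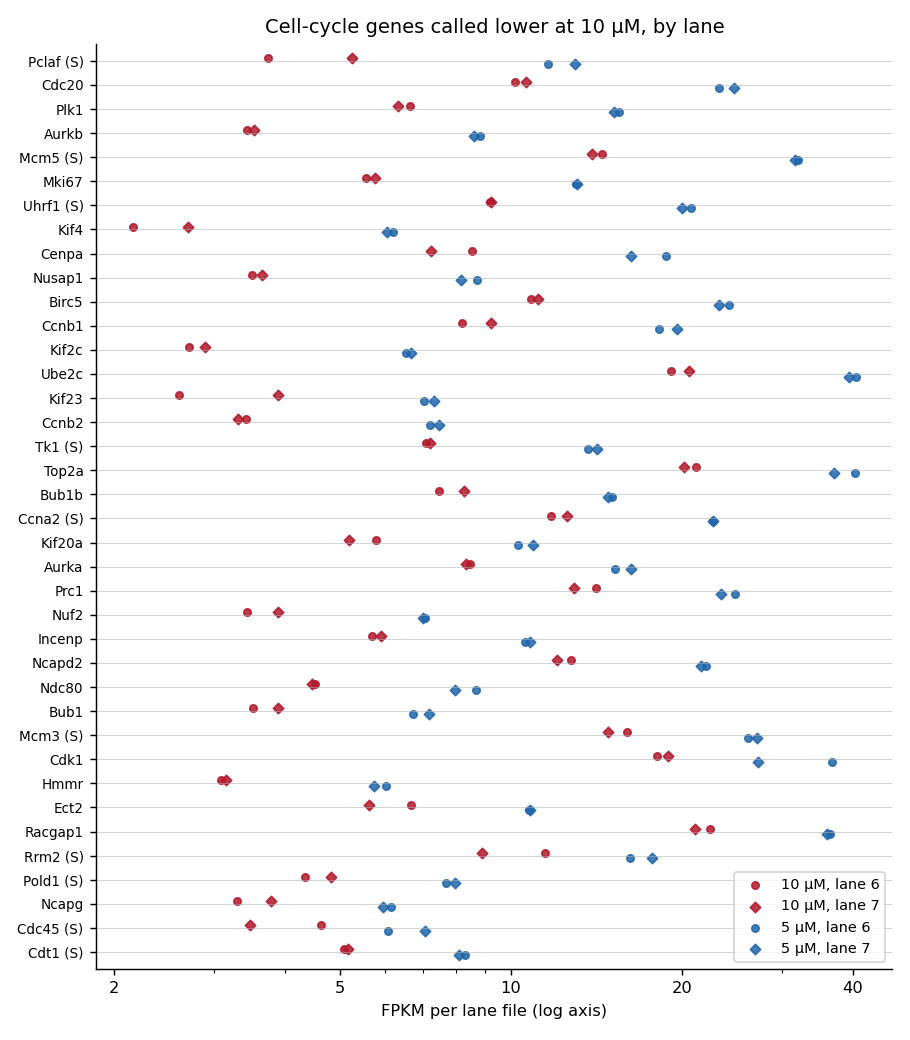
FPKM in each lane file (log axis) of the 38 genes called lower from the G2 and M phase list and the S phase list (marked S), ordered by fold, with 10 µM lanes in red and 5 µM lanes in blue. In each row both 10 µM lanes lie left of both 5 µM lanes, as the rule for a call requires. For Cdc20 they are 10.2 and 10.7 FPKM against 23.2 and 24.7 FPKM.

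S phase and replication genes were also lower, by less. Of 44 genes listed, 34 were compared, 10 were called lower and in 33 every lane pair was lower, with a median log2 fold of -0.43 (lane pairs -0.49 to -0.39). Over all genes compared, 1.03% were called lower and 36% were lower in every lane pair. The filter on FPKM was met at both doses by 29 of the 34 and at 5 µM alone by 5, Pclaf among them. The count among genes that passed is thus not independent of the direction. With a filter of 1 FPKM, 43 were compared and 12 were called lower, beside 1.38% of all genes compared at that filter. The summed level of the 34 was 2698 FPKM at 0 µM, 690.6 FPKM at 5 µM and 502.6 FPKM at 10 µM.

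Pclaf, the PCNA clamp-associated factor, had the lowest fold of both cell-cycle lists, with 3.74 and 5.25 FPKM at 10 µM, against 11.6 and 12.9 FPKM at 5 µM (-1.29, lane pairs -1.56 to -1.01). Mcm5, a subunit of the replicative helicase, had 14.5 and 13.9 FPKM at 10 µM, against 32.1 and 31.6 FPKM at 5 µM (-1.11). Uhrf1, which recruits the maintenance DNA methyltransferase, had 9.18 and 9.23 FPKM at 10 µM, against 20.7 and 20 FPKM at 5 µM (-1.07). The helicase subunits were uneven: beside Mcm5, Mcm3 was called lower (16 and 14.8 FPKM at 10 µM, against 26.2 and 27.1 FPKM at 5 µM, -0.75), while Mcm7 at -0.54, Mcm2 at -0.46, Mcm4 at -0.43 and Mcm6 at -0.30 were not called. Nucleotide supply genes called lower were Tk1, thymidine kinase, at -0.87 and Rrm2, the regulated subunit of ribonucleotide reductase, at -0.69, with Rrm1 at -0.30 not called. The sliding clamp Pcna at -0.31, the G1 cyclin Ccne1 at -0.43 and the factor E2f1 at -0.11 were not called, and Rfc4 at -0.02 had lane pairs of both signs. Cyclin A2 (Ccna2), which acts from S phase to mitosis, had 11.8 and 12.5 FPKM at 10 µM, against 22.7 and 22.7 FPKM at 5 µM (-0.85).

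Outside every list, 52 further genes were called lower, of which 46 have names and 6 are unnamed models. The lists did not pick them, and the genes named here were chosen after their values were seen. Many are known for mitosis: Pimreg at -0.96, Cenpm at -0.95, Troap at -0.91, the kinesin Kifc1 at -0.86, Cdca3 at -0.86, the separase Espl1 at -0.78, the condensin subunit Ncaph at -0.78, the passenger protein Cdca8 at -0.72 and Spc25 at -0.64. Others act on chromatin, the nuclear lamina or licensing: Hmgb2 had 15.4 and 20.2 FPKM at 10 µM, against 32.2 and 28.5 FPKM at 5 µM (-0.75), the lamin Lmnb1 stood at -0.72 and geminin (Gmnn), which restrains licensing, at -0.68. Over the 74 called-lower genes that matched a RefSeq promoter, TTTGAA was found in 27.8% of 79 windows and CCAAT in 68.4%, beside 10.1% and 35.5% of the windows of genes compared. In the 42 windows of called-lower genes outside both cell-cycle lists, TTTGAA was in 21.4% and CCAAT in 59.5%. In the 10 windows of S phase members called lower, TTTGAA was in 10% and CCAAT in 70%.

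Mrm1, a mitochondrial ribosomal RNA methyltransferase, had the lowest fold of all called genes: 5.10 and 4.86 FPKM at 10 µM, against 21.5 and 22.4 FPKM at 5 µM, a log2 fold of -1.94 (-1.998 to -1.885). Its lanes agreed within each dose, and its level was 6.23 FPKM at 0 µM, so the 5 µM library was the high one of the 3. The small nuclear RNA model Gm25360 followed the same order of doses, with 7.91 and 3.97 FPKM at 10 µM, against 24.1 and 21.2 FPKM at 5 µM, and 9.0 FPKM at 0 µM. Srp54a, of the signal recognition particle, had 12.2 and 9.88 FPKM at 10 µM, against 23.6 and 20.3 FPKM at 5 µM (-0.93), and 16.3 FPKM at 0 µM; near-identical gene copies could share its reads.

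The pathway that the inhibitor acts on gave smaller differences. Ptpn11, which encodes the target of SHP099, had 58.5 and 57.0 FPKM at 10 µM, against 56.8 and 60.0 FPKM at 5 µM (-0.02), with overlapping lanes. Pdgfra, the PDGF receptor of the model, had 74.7 and 72.9 FPKM at 10 µM, against 81.0 and 82.4 FPKM at 5 µM (-0.14), and its ligand Pdgfa had 22 and 20.7 FPKM at 10 µM, against 21 and 20.5 FPKM at 5 µM (0.04). Whether these FPKM include the introduced genes was not tested. Cdkn2a, the Ink4a/Arf locus, had 803 and 803 FPKM at 10 µM, against 826 and 819 FPKM at 5 µM (-0.04), although the labels give it as deleted; a value per gene does not show which exons were read. Of 34 genes for PDGF receptor, SHP-2 and RAS components 33 were compared and none was called, with 9 higher and 12 lower in every lane pair and a median of 0.00. Among all genes compared, 27.3% were higher and 36% lower in every lane pair, and 1.19% were called. The lowest of the 33 was Nras, with 49.1 and 52.7 FPKM at 10 µM, against 66.6 and 62.0 FPKM at 5 µM (-0.33).

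ERK output genes leaned lower, and most of them were weakly expressed at both doses. Of 25 listed, 12 were compared, 1 was called lower, and in 9 every lane pair was lower and in 1 higher, with a median of -0.27. Beside them, 1.03% of all genes compared were called lower, and every lane pair was lower for 36% and higher for 27.3%. The called gene was Ccnd1, with 82.8 and 80.7 FPKM at 10 µM, against 137 and 138 FPKM at 5 µM, a log2 fold of -0.75 (-0.77 to -0.72); its level at 0 µM was 238 FPKM. Ccnd1 overlaps an exon of LTO1 on the other strand in the annotation, and use of strand in counting is not stated. Dusp6, the ERK phosphatase, had 14.5 and 12.1 FPKM at 10 µM, against 15.9 and 19.5 FPKM at 5 µM (-0.39), and Egr1 had 80.6 and 79.2 FPKM at 10 µM, against 93.6 and 97.0 FPKM at 5 µM (-0.25). Neither passed 1.5-fold, though the lanes of the doses did not overlap.

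The ETS factors and Fosl1 were under 5 FPKM at both doses and so were not compared under the main filter. Etv4 had 0.659 and 0.689 FPKM at 10 µM, against 1.88 and 2.01 FPKM at 5 µM (-0.82), and 22.6 FPKM at 0 µM. Etv5 had 2.24 and 2.19 FPKM at 10 µM, against 4.32 and 4.09 FPKM at 5 µM (-0.70), and Fosl1, the FOS-family gene Fra-1, had 1.95 and 2.17 FPKM at 10 µM, against 4.14 and 3.65 FPKM at 5 µM (-0.68). For these low genes the pseudocount of 1 FPKM understates the ratio. Spry4, a feedback inhibitor of RAS signalling, had 0.913 and 0.784 FPKM at 10 µM, against 1.35 and 1.35 FPKM at 5 µM (-0.34). With a filter of 1 FPKM, 23 of the 25 ERK output genes were compared and 5 were called lower, with a median of -0.28. Over all genes compared at that filter, 1.38% were called lower and 0.413% higher.

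Immediate early genes held 1 called member among 21 compared of 26 listed, and every lane pair was lower for 13 and higher for 5. Over all genes compared, 1.03% were called lower, and every lane pair was lower for 36% and higher for 27.3%. Fosb, an AP-1 subunit, had 10.6 and 10.2 FPKM at 10 µM, against 16.1 and 16.5 FPKM at 5 µM (-0.60). Kitl, the ligand of the KIT receptor and the called gene among 19 compared receptor kinase and ligand genes, had 9.52 and 8.43 FPKM at 10 µM, against 13.9 and 14.4 FPKM at 5 µM (-0.60).

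Called genes outside the cell cycle included abundant ones whose lanes agreed closely. S100a4 had 540 and 538 FPKM at 10 µM, against 822 and 824 FPKM at 5 µM (-0.61), and 2145 FPKM at 0 µM. It is also a marker of fibroblasts: of that list of 13 genes, 9 were compared, 8 were lower in every lane pair and S100a4 was called, the list summing to 4562 and 4572 FPKM at 10 µM, against 5133 and 5158 FPKM at 5 µM; the part of such cells in the result was not tested. Ifitm3 had 270 and 264 FPKM at 10 µM, against 423 and 415 FPKM at 5 µM (-0.65). It was the called gene among 17 compared from the interferon-inducible list, of which 12 were lower in every lane pair (beside 36% of all genes compared). Ifi27l2a, outside that list, was also called lower, with 5.90 and 6.44 FPKM at 10 µM, against 9.42 and 11.6 FPKM at 5 µM (-0.68). The neighbour of Ifitm3 in the family, Ifitm1, had 57.9 and 54.6 FPKM at 10 µM, against 79.7 and 84.4 FPKM at 5 µM (-0.54), short of the rule. The matrix genes Mfap2, a microfibril protein, and Prelp, a small leucine-rich proteoglycan, stood just inside it: Mfap2 had 38.3 and 41.2 FPKM at 10 µM, against 61.2 and 59.2 FPKM at 5 µM (-0.59). Prelp had 16 and 16.6 FPKM at 10 µM, against 25 and 24.9 FPKM at 5 µM (-0.59), with 1.68 FPKM at 0 µM. For Mfap2 and Prelp the 5 µM library had the highest level of the 3 doses. Scaling the lanes to equal sums of FPKM left S100a4, Fosb, Kitl, Mfap2 and Prelp short of 1.5-fold, between -0.57 and -0.55.

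Just inside the size rule with them was Ccnf at -0.59, and just outside were Txnip, Trip13 and Cenph, each at -0.58. On the higher side, Immp2l at 0.61 was inside and Palm2 at 0.58 and Cic at 0.56 were outside.

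Genes called higher were few and mostly uneven between lanes. Of the 15, 10 were not protein coding, 8 were unnamed models, 8 met the filter at 10 µM alone and 9 had lanes of a dose that differed by 1.5-fold or more from each other. Of the 97 called lower, 39 met the filter at 5 µM alone and 5 had such lanes. Abca1, which exports cholesterol and is a target of the LXR receptors, had 30.4 and 29.8 FPKM at 10 µM, against 18.1 and 17.1 FPKM at 5 µM, a log2 fold of 0.74 (0.69 to 0.80), and 6.83 FPKM at 0 µM. It was the called member of 8 cholesterol export and LXR genes compared, of which 6 were higher in every lane pair (beside 27.3% of all genes compared) and whose median was 0.14. Ptpn4, a FERM-domain tyrosine phosphatase, had 7.74 and 8.52 FPKM at 10 µM, against 4.45 and 4.54 FPKM at 5 µM (0.73, lane pairs 0.66 to 0.81). Its level at 0 µM was 6.35 FPKM, between those of the doses.

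Of 21 TGF-beta genes compared, 11 were lower and 2 higher in every lane pair (beside 36% and 27.3% of all genes compared), with a median of -0.10. The 1 called was Zeb1, a repressor of epithelial genes, on the higher side and uneven between lanes: 69.6 and 107 FPKM at 10 µM, against 59.7 and 31.6 FPKM at 5 µM, a log2 fold of 0.97 whose lane pairs ran from 0.22 to 1.73. Without lane 7 of 5 µM its fold was 0.53. Ccdc191 had 3.03 and 9.38 FPKM at 10 µM, against 2.73 and 2.51 FPKM at 5 µM (0.84), and rested on lane 7 of 10 µM, without which the fold was 0.15. Immp2l, a mitochondrial inner membrane peptidase, had 20.5 and 13.3 FPKM at 10 µM, against 9.69 and 11.4 FPKM at 5 µM (0.61), and 0.32 without lane 6 of 10 µM. Hotairm1, a noncoding antisense RNA, had 32.6 and 28.1 FPKM at 10 µM, against 15.7 and 19.1 FPKM at 5 µM (0.77). The small nucleolar RNA Snora73a lies within its host gene Snhg3 and had 16.4 and 9.38 FPKM at 10 µM, against 7.15 and 7.18 FPKM at 5 µM (0.72), and 0.35 without lane 6 of 10 µM. The highest folds belonged to pseudogene models that can share reads with other loci: Gm28661 with 29.6 and 68.1 FPKM at 10 µM, against 4.97 and 4.77 FPKM at 5 µM (2.97), and Rps13-ps1 with 17.5 and 14.3 FPKM at 10 µM, against 2.52 and 1.82 FPKM at 5 µM (2.42). In the lanes of the 0 µM library Gm28661 had 6.78 and 27.1 FPKM and Rps13-ps1 had 32.5 and 2.88 FPKM, so repeat runs of 1 library lay far apart for both.

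**Figure D4:**
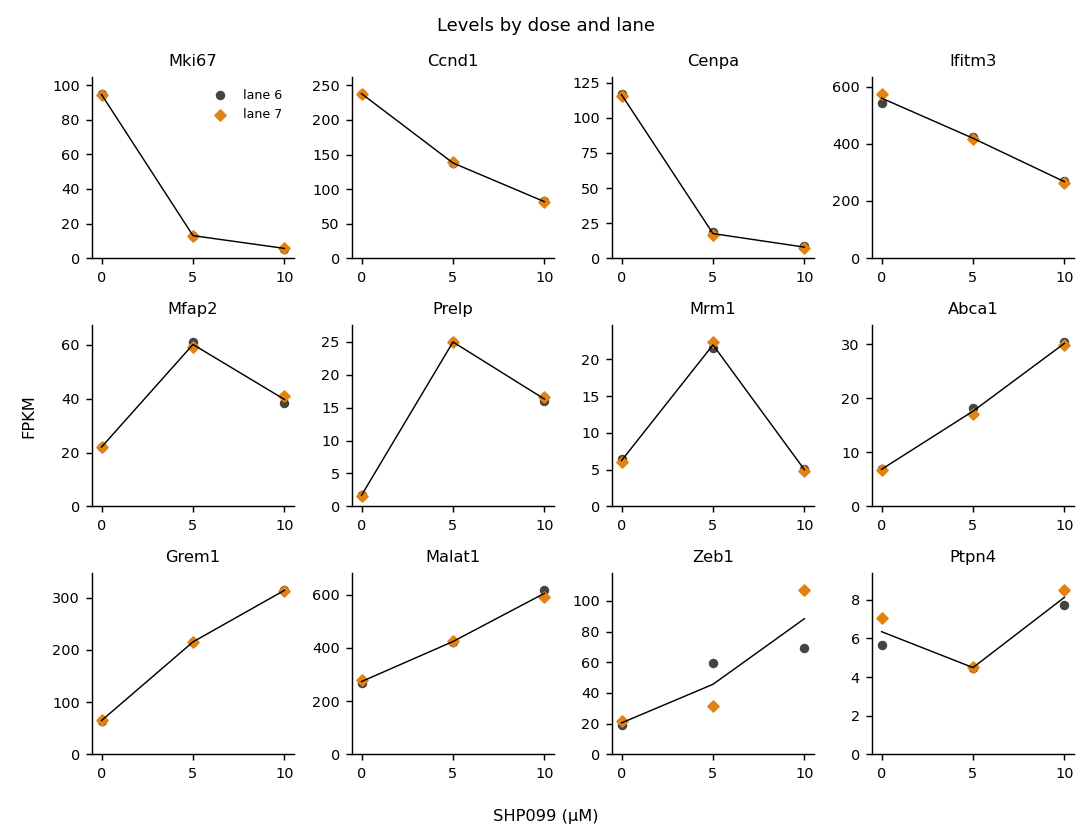
FPKM of 12 genes at 0, 5 and 10 µM SHP099, with lane 6 as circles, lane 7 as diamonds and a line through the lane means. Mki67 goes through 94.6, 13 and 5.67 FPKM, Mrm1 and Prelp peak at 5 µM, and the lanes of Zeb1 lie apart at both drug doses.

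Some abundant genes were higher in close agreement without reaching 1.5-fold. Malat1, a nuclear noncoding RNA, had 619 and 592 FPKM at 10 µM, against 421 and 428 FPKM at 5 µM (0.51). Grem1, a secreted BMP antagonist, had 315 and 313 FPKM at 10 µM, against 215 and 216 FPKM at 5 µM (0.54). For both, each 10 µM lane was above each 5 µM lane, and the 0 µM library was lowest, with 274 FPKM of Malat1 and 64.7 FPKM of Grem1.

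Whole gene groups shifted by small amounts that the lanes shared. Of 50 cytosolic ribosomal protein genes none was called, 45 were lower in every lane pair and none higher, with a median of -0.18 (beside 36% of all genes lower in every lane pair). Rplp0, of the ribosomal stalk, had 1152 and 1140 FPKM at 10 µM, against 1428 and 1436 FPKM at 5 µM (-0.32). Genes of MYC and ribosome biogenesis had 23 of 31 lower and 2 higher in every lane pair, a median of -0.15. Of 13 nuclear noncoding RNAs and host genes of small nucleolar RNAs compared, 9 were lower and 3 higher in every lane pair, Malat1 being the highest, with a median of -0.28. The host gene Gas5 had 195 and 189 FPKM at 10 µM, against 236 and 240 FPKM at 5 µM (-0.31). Of 22 endoplasmic reticulum chaperone and stress genes, 15 were lower and 3 higher in every lane pair, a median of -0.11, with the chaperone Hspa5 at 1059 and 1046 FPKM at 10 µM, against 1265 and 1285 FPKM at 5 µM (-0.28). No member of these groups was called.

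Lysosome genes shifted the other way. Of 33 compared, 30 were higher in every lane pair and 2 lower (27.3% of all genes were higher), with a median of 0.17 and no called member. Hexa, the alpha subunit of hexosaminidase A, had 181 and 181 FPKM at 10 µM, against 146 and 145 FPKM at 5 µM (0.32). Neu1, lysosomal sialidase, had 67.2 and 67.4 FPKM at 10 µM, against 55.1 and 54.9 FPKM at 5 µM (0.29), and the protease Ctsl had 905 and 885 FPKM at 10 µM, against 739 and 736 FPKM at 5 µM (0.28). Summed, the 33 genes had 4498 FPKM at 0 µM, 8936 FPKM at 5 µM and 9990 FPKM at 10 µM. Transcripts of the mitochondrial genome had 12 of 14 higher in every lane pair, a median of 0.21, and took 7.99% and 8.18% of all FPKM in the 10 µM lanes, against 7.10% and 7.10% in the 5 µM lanes. FPKM are shares of a library, so a group that takes a larger share leaves less for others; scaling the lanes to equal sums without mitochondrial genes moved the median of all genes to 0.03, and the directions of the ribosomal, lysosomal and mitochondrial medians were the same under each scaling tried. With that scaling 29 members of the G2 and M phase list were called lower.

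**Figure D5:**
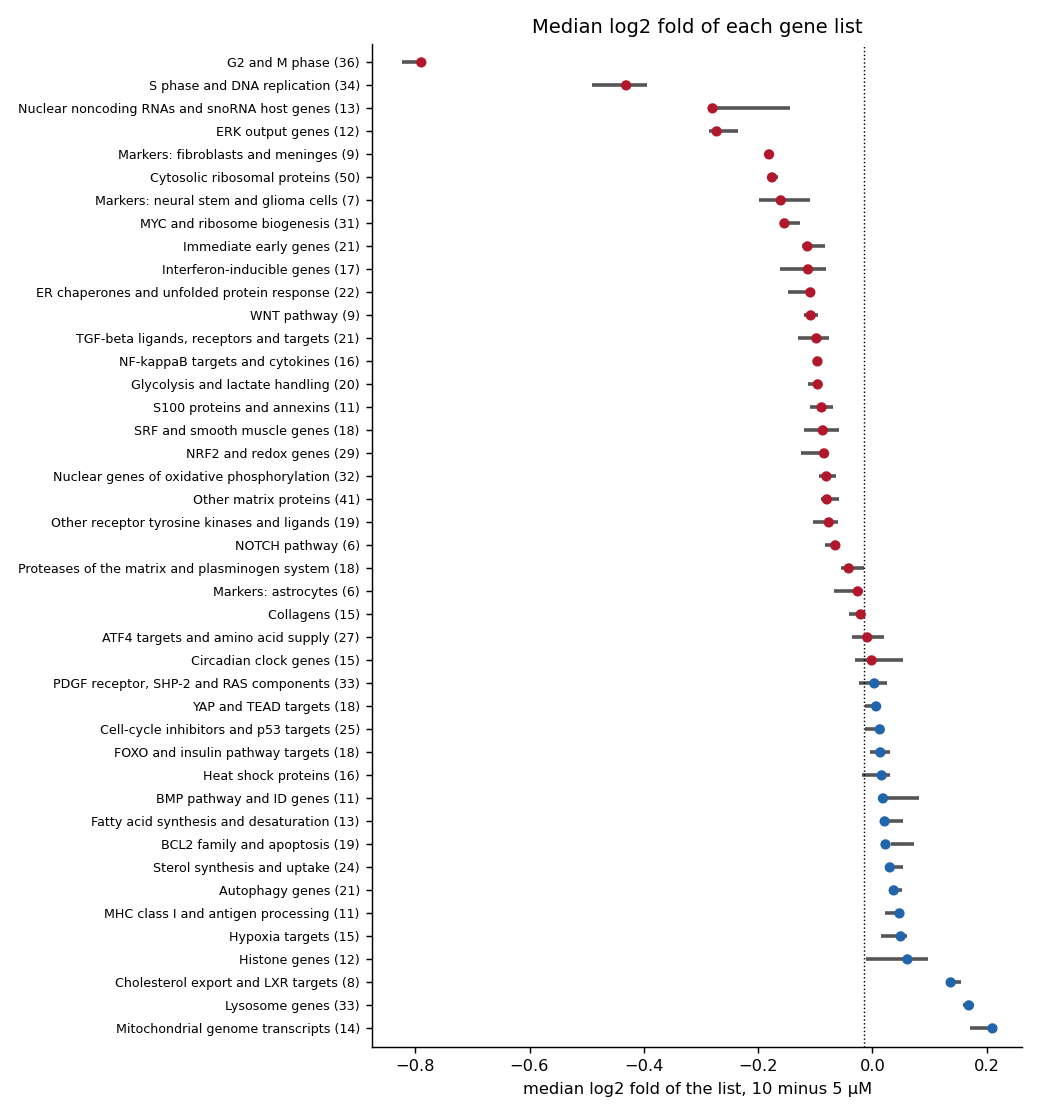
Median log2 fold of 10 over 5 µM for each gene list with its number of genes compared in brackets; bars span the medians of the 4 lane pairs, red marks medians below 0 and blue those above, and the dotted line is the median of all genes, -0.01. The G2 and M phase list at -0.79 and the S phase list at -0.43 lie farthest from the line, and the mitochondrial and lysosome lists lie at 0.21 and 0.17.

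Other groups had medians near that of all genes and no called member. Collagens had a median of -0.02, with 9 of 15 lower and 5 higher in every lane pair, and cell-cycle inhibitors and p53 targets one of 0.01, with 9 of 25 lower and 11 higher. Sterol synthesis and uptake genes had a median of 0.03, with 11 of 24 higher and 3 lower, and autophagy genes one of 0.04, with 12 of 21 higher and 2 lower. Beside these counts, 36% of all genes compared were lower and 27.3% higher in every lane pair. The sign of the collagen and inhibitor medians changed under some alternatives. Among these, the collagen Col3a1 had 256 and 288 FPKM at 10 µM, against 347 and 359 FPKM at 5 µM (-0.38), and Col8a1 had 65.8 and 66.4 FPKM at 10 µM, against 51.8 and 49.7 FPKM at 5 µM (0.38). The p21 gene Cdkn1a had 21.4 and 21.9 FPKM at 10 µM, against 19.5 and 18.7 FPKM at 5 µM (0.18). Both directions were thus present within the collagens.

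Depth was 30740000 and 31080000 fragments in the 10 µM lanes and 37980000 and 38260000 in the 5 µM lanes, beside 47300000 and 47580000 at 0 µM, as worked out from the spacing of the lowest FPKM. A transcript of 2 kb at 5 FPKM then has 271 or 274 fragments per lane at 10 µM and 334 or 337 at 5 µM, a counting error of 6.08% and 6.05%, and of 5.47% and 5.45%; these cover counting error only. Of 17 astrocyte markers, 6 reached 5 FPKM at either dose, among them Clu with a mean of 229.6 FPKM at 10 µM, against 212.8 FPKM at 5 µM, and Gja1 with 24.1 FPKM at 10 µM, against 28.7 FPKM at 5 µM, while 7 were under 0.1 FPKM at both, among them Gfap, Aqp4 and Aldoc. Of 13 neural stem and glioma markers, 7 reached 5 FPKM. Among them were Vim, with a mean of 1625 FPKM at 10 µM, against 1816 FPKM at 5 µM, and Sox2, with 16.2 FPKM at 10 µM, against 18.6 FPKM at 5 µM. Olig1, Olig2, Prom1 and Sox11 were among those under 0.1 FPKM. Of 15 microglial markers 10 were under 0.1 FPKM and 1 reached 5 FPKM, Tmem119 with a mean of 127 FPKM at 10 µM, against 119 FPKM at 5 µM. Of 10 neuronal markers 7 were under 0.1 FPKM, and the 2 that reached 5 FPKM were Stmn2, with 118.9 FPKM at 10 µM, against 122.1 FPKM at 5 µM, and Tubb3, with 16.4 FPKM at 10 µM, against 18.7 FPKM at 5 µM. Of 10 endothelial and pericyte markers 6 were under 0.1 FPKM and none reached 5 FPKM, and of 10 oligodendrocyte markers 6 were under 0.1 FPKM and 1 reached 5 FPKM. By contrast, 9 of 13 fibroblast and meninges markers reached 5 FPKM at either dose. Exons of other genes overlap some named here in the annotation, among them Elovl1 for Cdc20, Tnnc2 for Ube2c, Rccd1 for Prc1 and Oip5 for Nusap1 on the other strand, and Gm42674 for S100a4 on the same strand, so reads of these pairs could be shared.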

How the data were processed

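Polyadenylated RNA of 3 libraries, 1 per dose of SHP099, was sequenced in lanes 6 and 7, and the lanes of a library count as repeat runs of it. The deposited values are FPKM per gene made by the authors; Bowtie 0.12.2 and mm8 are named per the submitters' processing notes, and how the FPKM were computed or scaled is not given in the sources used here. Rows of a symbol were summed (110 symbols), Snora62 was left out, and lane means were taken on log2(FPKM + 1). Genes with a lane mean of at least 5 FPKM at 10 or 5 µM were compared, and called past 1.5-fold with all 4 lane pairs of one sign. The steps between low FPKM gave the number of fragments with 240 bases subtracted from the length of genes with 1 transcript; 97.6% to 98.3% of values came out whole within 0.1. Gene types and overlaps came from GENCODE release 21 for mouse (GRCm38), with no positions, and promoters from RefSeq on GRCm38.p6. The members, the 47 gene lists and the rules were chosen with earlier results of these data known.

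Named genes were up to 15 highest and 15 lowest called genes with names (7 were higher), 12 fixed genes, and up to 6 called members of each list or otherwise the 2 with the largest fold; other genes were named after their values were seen. No test was made, since each dose is 1 library. The rule was also run on simulated lanes with counting error only and known folds placed in genes well above the filter. Those lanes hold no spread between libraries, so they cannot show how sure a call is. Alternatives were other pseudocounts (0.1 and 5), filters (1, 10 and none), scalings, lanes left out or taken alone, a lower and a higher fold rule, the largest row of a symbol and protein-coding genes alone. Python 3.11.15, numpy 2.4.6, pandas 2.3.3 and matplotlib 3.10.9 were used.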

Additional observations from a re-analysis of the deposited data

Results flagged for a closer look

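The small nucleolar RNA gene Snora62, which the comparison leaves out, stood at 385860 FPKM for lane 6 of the 5 µM library, while its lane 7 and the 4 lanes of the other doses list it at 0, so the signal stands in 1 of 2 runs of the same library.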

How the results depend on the processing

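No paired analysis was possible because the result comes from no test: each dose is 1 library and its lanes are repeat runs. Genes called higher at 10 µM numbered 15 and genes called lower 97. Higher and lower counts were 8 and 35 with a pseudocount of 5 FPKM, 51 and 170 with a filter of 1 FPKM, 9 and 55 with a filter of 10 FPKM, 65 and 180 with no filter, 118 and 330 with a fold rule of 0.32 on the log2 scale, 4 and 15 at 2-fold, and 5 and 59 where all 4 lane pairs had to pass 1.5-fold, the last chosen after seeing the data. Higher counts also moved to 33 in lane 6 alone, 32 in lane 7 alone and 5 among protein-coding genes. With a single lane file left out the higher count ranged from 20 to 33, with 33 without lane 7 of 10 µM and 24 without its lane 6, and the lower count from 96 to 121. The share of lower genes among those called was 86.6%, and 73.5% to 94.9% under the other settings; it was 87.4% with trimmed mean scaling, 81.9% with equal sums and 84.0% with a median fold of 0. With a filter on the mean of both doses, chosen after seeing the data, the counts were 12 and 78. Members of the G2 and M phase list called lower were 28, and 16 with a pseudocount of 5 FPKM, 17 with a filter of 10 FPKM and 9 at 2-fold. Members of the S phase list called lower were 10, and 6 with a pseudocount of 5 FPKM, 23 at the fold rule of 0.32, 3 at 2-fold and 6 with all lane pairs past 1.5-fold. The causes of these moves were not tested beyond what each rule adds or removes.

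Over 18 alternatives, values of named genes met the same side of the rule 1907 times, lost the call 56 times, gained it 13 times, and for called genes changed sign 0 times. Equal sums of FPKM put Mfap2 at -0.55, Prelp at -0.55, Fosb at -0.56, Kitl at -0.57 and S100a4 at -0.57, all short of 1.5-fold. Hotairm1 had 0.54 in lane 7 alone, Zeb1 0.22 in lane 6 alone, and Dusp6 -0.65 in lane 7 alone, past the rule. Grem1 reached 0.59 with equal sums without mitochondrial genes, chosen after seeing the data. List medians changed sign in 15 of 43 lists, among them the PDGF receptor, collagen and heat shock lists; those of the G2 and M phase list ranged from -0.90 to -0.57 and of the S phase list from -0.47 to -0.31. Lane noise shows sequencing error, and 1 library per dose holds no spread between cultures.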
